A study of Mus musculus with 2 samples.

Results

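The kinesin motor genes of the mouse were examined in tissue under and above the dorsal aorta of the embryo. They were taken by symbol, as every gene named Kif or Kifc followed by a number and at most 1 letter from a to c, which gave 42 of the 24675 genes with a symbol on the array. The rule leaves out Cenpe, a kinesin of the kinetochore with a name of its own, as well as the accessory subunit Kifap3 and the kinesin-binding protein Kifbp; these are given further on. RNA came from laser-microdissected tissue of C57Bl/6 embryos at embryonic day 10.5 and was hybridised to Mouse Gene 2.0 ST arrays of Affymetrix. The ventral tissue lay underneath the aorta and the dorsal tissue between its roof and the notochord, both cut from the same embryos; how many embryos were used is not stated in the labels. Each tissue has 1 array, labelled biological replicate 4. The differences therefore carry neither a replicate error nor a p-value, and the number of arrays limits every value.

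Kinesins are motor proteins that hydrolyse ATP to move along microtubules or to take them apart. One class works on the mitotic spindle, where its members slide, bundle or depolymerise microtubules, move chromosomes and complete cytokinesis; many of its genes are transcribed mainly around G2 and mitosis. Another class carries vesicles, organelles and protein complexes through the cytoplasm, and several of its members are best known from neurons. A further group acts in cilia, where the kinesin-2 motor drives intraflagellar transport and Kif7 regulates Hedgehog signalling. In the embryonic aortic region dividing mesenchyme, vessel wall and blood cells lie side by side.

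Values are log2 expression. Background was set at 3.92, which 95% of the values of 1365 genes for olfactory and vomeronasal receptors did not exceed, and a higher mark at their 99th percentile was 5.48; such receptors serve as genes that are likely silent here. Levels ran from 1.47 to 14.16 on the ventral and from 1.45 to 14.14 on the dorsal array, with medians of 3.02 and 3.15. The tissue labels were set against marker lists. Of 5 markers of coelomic epithelium and ventral mesenchyme 3 passed 2-fold towards ventral tissue, among them Wt1 at 6.61 in ventral and 3.80 in dorsal tissue. So did 3 of 6 endothelial markers, among them Cdh5 at 6.64 and 4.22. Of 6 sclerotome markers 3 passed 2-fold towards dorsal tissue, with Pax9 at 4.02 in ventral and 6.15 in dorsal tissue, and Shh of the notochord was at least 2.30-fold higher there. Noto, also of the notochord, was at 3.22 in ventral and 4.24 in dorsal tissue, at least 1.25-fold. These counts use the measured values, by which 5.36% of all genes passed 2-fold towards ventral and 2.79% towards dorsal tissue. Emx2, Kdr and Uncx, 1 in each count of 3, had the lower value under background. Against the background mark they were at least 1.92-fold, 1.88-fold and 1.34-fold apart. Of 5 erythroid markers, all above background, Klf1 was 2.14-fold higher in dorsal tissue at 4.25 in ventral and 5.35 in dorsal tissue, and below 2-fold with centring. Alas2 was at 4.104 in ventral and 3.395 in dorsal tissue, and the globin Hba-x at 11.81 and 12.11. Summed over the list on the linear scale and given as log2, coelomic markers reached 7.95 in ventral and 5.75 in dorsal tissue, endothelial markers 7.72 and 6.24, and sclerotome markers 6.60 and 7.83. Their part in the kinesin differences below was not tested. In whole pieces of tissue, fewer cells of a type and less RNA per cell cannot be told apart.

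Most kinesins of the spindle were above background in both tissues, most of those of transport were at background in both, and 2 kinesins were at least 2-fold apart. Above background on at least 1 array were 16 of the 42 genes, against 28.8% of all genes with a symbol and 31.4% of protein-coding genes. By class these were 9 of 14 mitotic kinesins, 3 of 15 transport kinesins, 2 of 7 ciliary and Hedgehog kinesins and 2 of 6 others. Above the higher mark of 5.48 were 10, of which 8 were mitotic, where 10.7% of all genes and 11.4% of protein-coding genes passed it. The members nearest the background mark were Kif20a, Kif26b and Kif17, with higher values of 4.18, 4.22 and 4.23, and, just under it, Kif18b, Kif1b and Kif1c, with 3.90, 3.87 and 3.85.

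**Figure D1:**
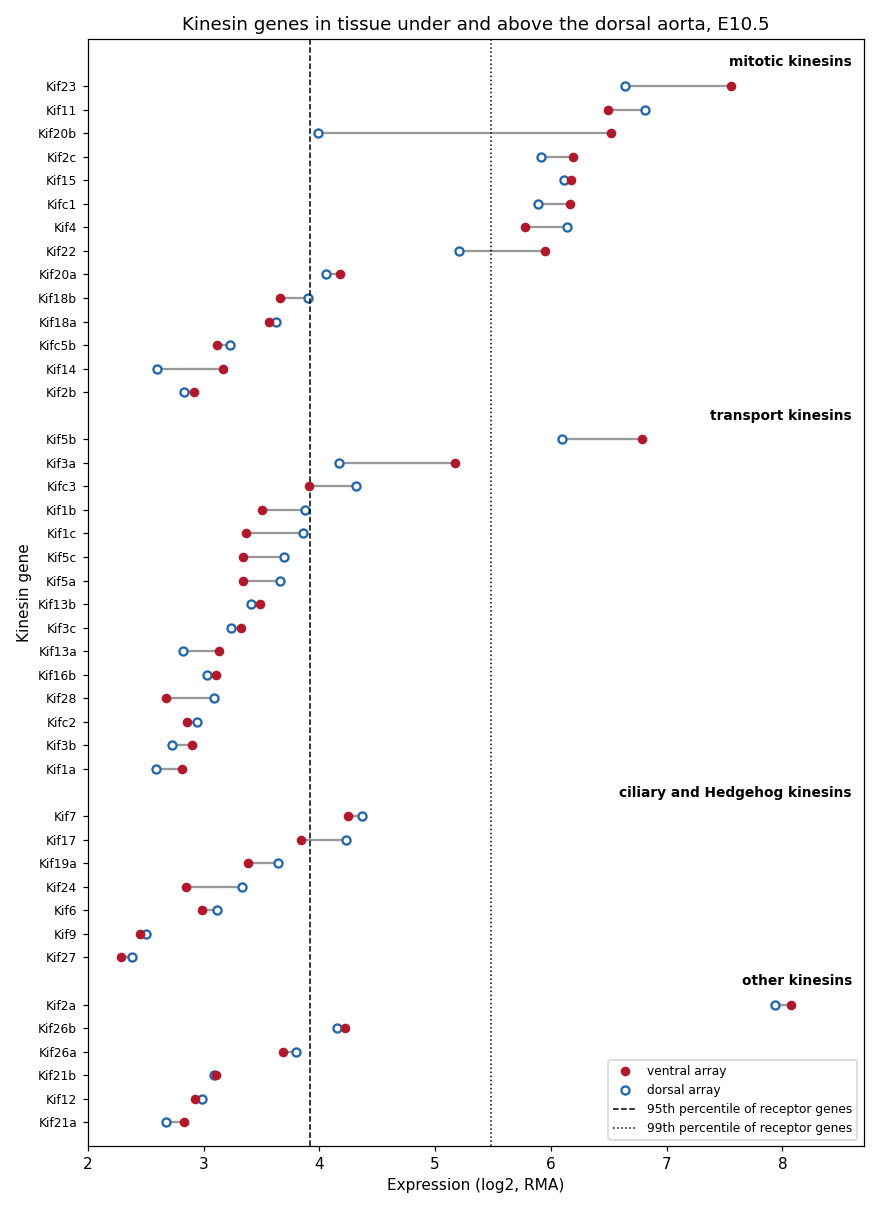
Expression on the log2 scale (x axis) of the 42 kinesin genes (rows, by class), with a filled red point for the ventral array and an open blue point for the dorsal array, 1 array each. The dashed and dotted lines are the receptor genes' 95th and 99th percentiles, 3.92 and 5.48; 8 of the 10 genes past the dotted line are mitotic kinesins, and Kif20b has the widest gap. Levels of different genes come from different probes and are not comparable with each other.

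Only Kif20b and Kif3a were at least 2-fold apart on the measured values, both higher in ventral tissue, and the other 40 members lay within 2-fold. By the same measure 5.36% of all genes with a symbol were higher in ventral tissue and 2.79% were higher in dorsal tissue. For the comparison of lists a gene was kept if its higher value reached 3.10, the median level of all genes. This kept 33 of the 42 kinesins, and the background share among all 13982 kept genes was 9.44% towards ventral and 4.88% towards dorsal tissue. By sign alone 21 kinesins were higher in ventral and 21 in dorsal tissue, beside 36.6% and 63.3% of all genes; 27 were higher in ventral tissue with centring or the loess and 22 under quantile normalization. The median difference, ventral minus dorsal, was -0.02 over all 42 and 0.01 over the kept members, beside -0.11 over all genes and -0.12 over all kept genes.

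Kif20b, a kinesin of late mitosis that acts in the completion of cytokinesis, stood at 6.52 in ventral and 3.98 in dorsal tissue. The ventral value lay above both background marks and the dorsal value just above the lower one. The difference of 2.53 on the log2 scale is 5.78-fold, and 217 of the 24675 genes had a greater ventral excess. Under quantile normalization of both columns, centring and a loess on level it stayed between 2.37 and 2.65.

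The other mitotic kinesins were closer between the tissues. Kif23, the motor subunit of the centralspindlin complex that builds the midzone for cytokinesis, was at 7.55 in ventral and 6.64 in dorsal tissue, 1.89-fold higher in ventral tissue. Kif22, the chromokinesin that pushes chromosome arms towards the spindle equator, was at 5.95 in ventral and 5.21 in dorsal tissue, 1.68-fold higher. Kif23 thus came near 2-fold and passed it at 1.03 once differences were centred on the median of all kept genes, while quantile normalization left it at 0.60.

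In the opposite direction Kif11, the bipolar motor that separates spindle poles and the target of the inhibitor monastrol, was at 6.49 in ventral and 6.81 in dorsal tissue. Kif4, a chromokinesin that shortens the midzone, was at 5.77 in ventral and 6.14 in dorsal tissue. Both were thus higher in dorsal tissue, by 1.25-fold and 1.29-fold. Kif4 has a transcribed pseudogene, Kif4-ps, which was at background with 2.93 in ventral and 3.55 in dorsal tissue, and probes of the pair may share signal.

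The spindle motors with the smallest gaps covered several activities. Kif15, which supports spindle bipolarity alongside Kif11, was at 6.17 in ventral and 6.11 in dorsal tissue. Kif2c, the microtubule depolymerase at centromeres also called MCAK, was at 6.19 in ventral and 5.91 in dorsal tissue. Kifc1, the minus-end-directed motor that focuses spindle poles, was at 6.17 in ventral and 5.88 in dorsal tissue. The direction of these 3 flipped under quantile normalization, to -0.24 for Kif15, -0.0021 for Kif2c and -0.0074 for Kifc1, so none is given here as higher in either tissue. Kif20a, which carries the chromosomal passenger complex to the midzone, was near background at 4.18 in ventral and 4.06 in dorsal tissue.

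Under background on both arrays were 5 mitotic kinesins: Kif18a and Kif18b, which control microtubule length at the plus end, Kif14, a cytokinesis motor, Kif2b, a depolymerase, and Kifc5b, a close relative of Kifc1 whose probes may read both genes. Their values ran from 2.91 to 3.66 in ventral and from 2.59 to 3.90 in dorsal tissue, and a difference was not detectable at this signal. The 9 mitotic kinesins above background were so on both arrays; 4 of them, Kif20b, Kif23, Kif22 and Kif20a, were higher in ventral tissue under every scaling tried, Kif11 and Kif4 were higher in dorsal tissue, and the sign of the other three turned. Their median difference on measured values was 0.28, or 0.20 without Kif20b, beside 0.03 over all genes above background. Under quantile normalization the middle of the 9 values was that of Kif2c, at -0.0021. Over all 14 the median was 0.10.

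The 8 mitotic kinesins that were above background and had a promoter in the RefSeq table (build GRCm38.p6) shared a short sequence. The table held promoters of 300 bases, from 250 before to 50 after the transcription start, for 33 of the 42 kinesins, some with more than 1. The letters TTTGAA are the core of the cell cycle genes homology region, an element through which the MuvB complexes DREAM and B-Myb-MuvB are known to hold cell cycle genes silent in resting cells and to activate them late in the cycle. Read on either strand, it was in all 8 of these promoters and in 11 of 13 promoters of mitotic kinesins as a whole. It was in 1 of 11 promoters of transport kinesins, 1 of 7 of ciliary kinesins and 1 of 6 of the others. Kif2a, which also acts at spindle poles but was counted with the others, did not hold it. The background share was 17.9% of all 32851 promoters listed and 16.0% of those of protein-coding genes.

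Windows from 60 bases before to 30 bases after the start are printed for the 7 of these promoters in which the element lay close to the start, with that of Kif3a beside them as the other kinesin at least 2-fold apart. Each is written 5′ to 3′ on the strand of its gene, and capitals mark the element or its reverse complement TTCAAA.
Kif20b, chr19:34922298-34922387, plus strand: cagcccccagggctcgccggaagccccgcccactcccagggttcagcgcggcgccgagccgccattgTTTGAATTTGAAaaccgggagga
Kif23, chr9:61946770-61946859, minus strand: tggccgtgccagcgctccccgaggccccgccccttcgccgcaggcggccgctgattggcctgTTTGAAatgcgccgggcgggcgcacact
Kif22, chr7:127042391-127042480, minus strand: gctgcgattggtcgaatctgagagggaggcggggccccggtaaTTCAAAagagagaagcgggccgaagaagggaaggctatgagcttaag
Kifc1, chr17:33890604-33890693, minus strand: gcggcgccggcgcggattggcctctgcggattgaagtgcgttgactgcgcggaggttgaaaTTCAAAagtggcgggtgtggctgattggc
Kif15, chr9:122951021-122951110, plus strand: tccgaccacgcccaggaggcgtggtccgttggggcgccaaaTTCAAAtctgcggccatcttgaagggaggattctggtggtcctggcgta
Kif11, chr19:37376322-37376411, plus strand: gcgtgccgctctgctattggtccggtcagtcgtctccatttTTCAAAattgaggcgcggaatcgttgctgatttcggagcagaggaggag
Kif4, chrX:100626005-100626094, plus strand: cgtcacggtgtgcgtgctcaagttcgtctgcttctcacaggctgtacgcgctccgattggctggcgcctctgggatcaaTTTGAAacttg
Kif3a, chr11:53567309-53567398, plus strand: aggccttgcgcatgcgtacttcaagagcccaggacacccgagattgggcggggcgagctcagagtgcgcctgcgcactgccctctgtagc

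In Kif20b the element stood as a tandem pair, its copies beginning at bases 8 and 14 counted from 1 at the transcription start. Those of Kif23, Kifc1 and Kif4 began at bases 3, 2 and 20, and those of Kif11, Kif15 and Kif22 at -19, -19 and -17. The window of Kif3a held none. Within such windows the element occurred in 8 of 13 promoters of mitotic kinesins and 2 of 24 of the other kinesins, beside 4.62% of all promoters. In Kif2c it lay farther off, at -103. The CCAAT box, bound by NF-Y and often found next to this element, was in 9 of 13 promoters of mitotic and 8 of 24 of other kinesins, against 37.4% of all promoters and 38.2% of those of protein-coding genes. The GC box GGGCGG was in 6 of 13 and 17 of 24, against 35.7% of all promoters and 46.2% of those of protein-coding genes, the share of the mitotic kinesins. Median GC content was 60.7% in promoters of mitotic and 67.7% in those of other kinesins, and its part in these shares was not tested. Kif20b, with a difference of 2.53, and Kif4, with -0.36, both held the element near the start. A match describes the sequence and is not a measured binding site.

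**Figure D2:**
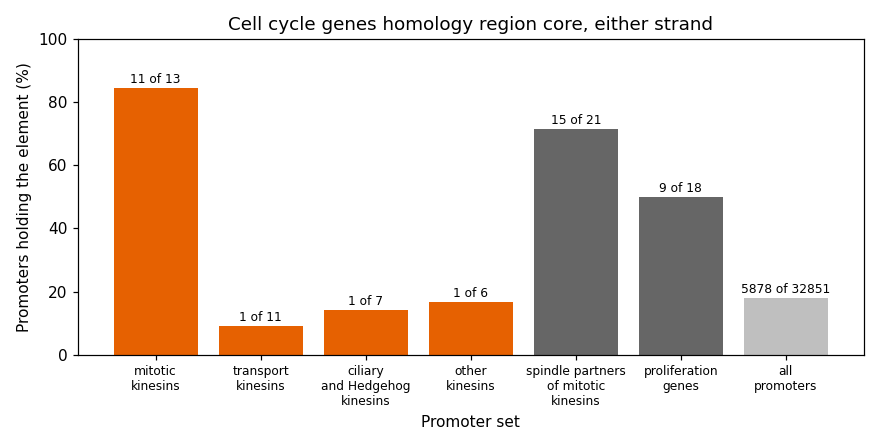
Share of RefSeq promoters (y axis, percent, from 0) that hold the core of the cell cycle genes homology region on either strand, by promoter set (x axis), with the number of promoters above each bar. Mitotic kinesins stand at 11 of 13 and spindle partners at 15 of 21, whereas the other kinesin classes have 1 promoter each and all promoters together 17.9%.

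Genes that work with the mitotic kinesins were mostly above background too. Of 24 spindle partners, all of them kept, 20 were above background. Past 2-fold were 3 towards ventral and 0 towards dorsal tissue, beside 9.44% and 4.88% of all kept genes. Ndc80, a kinetochore subunit that binds microtubules, was at 5.10 in ventral and 3.47 in dorsal tissue, which is at least 2.26-fold, since the dorsal value was at background. Bub1b, a spindle checkpoint kinase, was 2.43-fold higher at 6.00 in ventral and 4.72 in dorsal tissue, and Cdca8, the passenger complex subunit borealin, 2.16-fold at 5.32 and 4.21. Cenpe, the kinetochore kinesin outside the symbol rule, was at 6.08 in ventral and 5.70 in dorsal tissue. The partner list had a median of 0.20 over its kept members, all 24. That median was 0.09 under quantile normalization, with 2 genes past 2-fold towards ventral tissue. It was 0.32 with centring and 0.19 with the loess, with 3 such genes each time. Of 19 measured proliferation genes all were above background, with 2 past 2-fold on measured values towards ventral tissue and a median of 0.0025. The count was 1 under quantile normalization or the loess and 3 with centring, and the median turned to -0.14 under quantile normalization and -0.08 with the loess. The 2 on measured values were Foxm1 and Mcm4. Foxm1 is a transcription factor that works with B-Myb-MuvB at the element shown above. It was at 5.09 in ventral and 3.16 in dorsal tissue, at least 2.26-fold. Mcm4 was 2.17-fold higher at 7.19 in ventral and 6.07 in dorsal tissue. Mybl2, the gene of B-Myb, was 1.29-fold higher in dorsal tissue, at 4.09 in ventral and 4.46 in dorsal tissue. Mki67 and Top2a are among the genes on this list that were within 2-fold.

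Transport kinesins were above background in 3 of 15 cases. Kif5b, the ubiquitous heavy chain of conventional kinesin, was at 6.79 in ventral and 6.10 in dorsal tissue, 1.61-fold higher in ventral tissue. Kif3a, a motor subunit of heterotrimeric kinesin-2, was at 5.17 in ventral and 4.17 in dorsal tissue, which is 2.01-fold. The gap of Kif3a lay at the threshold, with 1.01 on the log2 scale, and fell below it at 0.86 under quantile normalization. Kifc3, a minus-end-directed motor of junctions and apical transport, was at 3.91 in ventral, at background, and 4.32 in dorsal tissue, at least 1.32-fold higher in dorsal tissue.

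The remaining 12 transport kinesins were under background on both arrays, from 2.67 to 3.50 in ventral and from 2.59 to 3.88 in dorsal tissue. They include Kif5a and Kif5c, the neuronal heavy chains of conventional kinesin, at 3.34 and 3.34 in ventral and 3.66 and 3.70 in dorsal tissue, and Kif1a, the motor of synaptic vesicle precursors, at 2.81 in ventral and 2.59 in dorsal tissue. Neuronal markers were present and of no common direction: 5 of 10 were above background, with Nefm at 8.19 in ventral and 5.45 in dorsal tissue and Tubb3 at 4.64 and 5.78. Their sum on the linear scale, as log2, was 8.68 in ventral and 7.59 in dorsal tissue, but 6.88 and 7.22 without Nefm. Of the 10 markers, 6 had the higher value in dorsal tissue. Nefl, another neurofilament, was at 3.96 and 2.62.

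**Figure D3:**
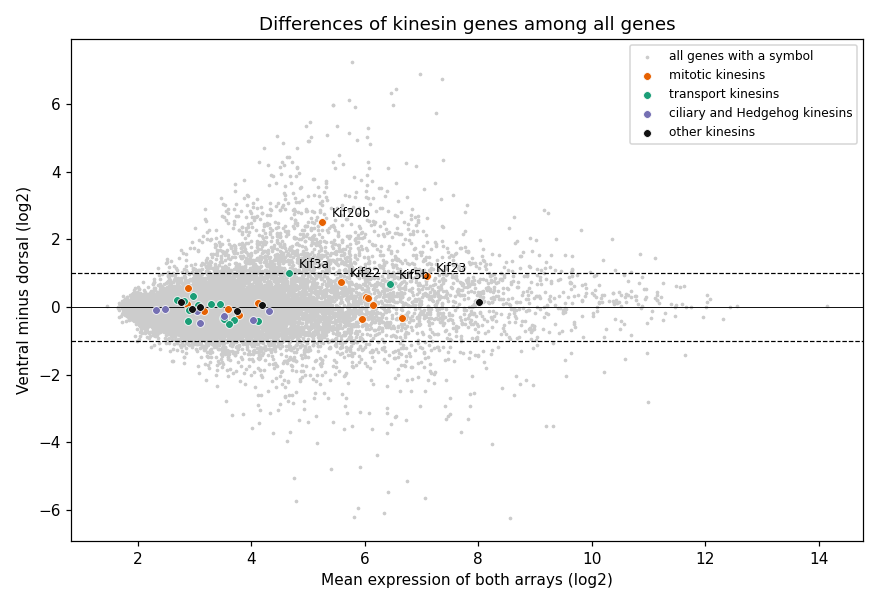
Ventral minus dorsal difference (y axis, log2) against the mean of both arrays (x axis, log2) for all 24675 genes in grey and the 42 kinesins in colour by class. Dashed lines mark 2-fold; Kif20b lies well above the upper line at 2.53, Kif3a on it at 1.01, and the other kinesins between the lines.

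Kinesin-2 works with the intraflagellar transport trains of cilia, and its parts differed in detection. Kif3b, the usual partner of Kif3a, was at background at 2.90 in ventral and 2.73 in dorsal tissue, as were the alternative partner Kif3c, at 3.33 and 3.24, and the accessory subunit Kifap3, at 3.54 and 3.08. Of 20 intraflagellar transport genes 7 were above background, where 31.4% of protein-coding genes were. Of these 7, 5 passed 2-fold on measured values towards ventral tissue, as did Kif3a, and 0 towards dorsal tissue. Among all 7101 genes above background, 1258 passed it towards ventral and 601 towards dorsal tissue. Of the 5, 4 were above background on the ventral array alone, a way of passing that in itself favours a gap. Counted by their lower bound, Ift20, Ift74 and Traf3ip1 were at least 2-fold higher. Ift57 was at 4.84 in ventral and 2.14 in dorsal tissue, at least 1.89-fold, and Traf3ip1, also called Ift54, at 5.67 and 3.56, at least 3.37-fold. Ift81, which binds tubulin together with Ift74, was at 4.53 and 2.74, at least 1.53-fold. The median over 15 kept genes of the list was 0.17, so the gaps were in part of the list. Over the kept genes, which include members under background such as Ift46 at 3.89 in ventral and 2.89 in dorsal tissue, 5 of 15 passed 2-fold towards ventral tissue. The count was 6 of 16 under quantile normalization and 6 of 15 with centring or the loess. Of all kept genes 9.44% passed it on measured values, and 8.39%, 10.9% and 9.81% under these scalings.

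Motors that act inside cilia were mostly at background. Kif7, which regulates Gli factors at the ciliary tip, was at 4.25 in ventral and 4.37 in dorsal tissue, above background in both and 1.09-fold apart. Kif17, the homodimeric kinesin-2 of some sensory cilia and of dendrites, was at 3.84 in ventral, at background, and 4.23 in dorsal tissue. The other 5 were under background, among them Kif9 and Kif19a, associated with motile cilia; none of the 4 markers of motile cilia was above background in either tissue. All 7 ciliary and Hedgehog kinesins had the higher value in dorsal tissue, by 0.05 to 0.48 on the log2 scale, as did 63.3% of all genes, and 5 of the 7 were under background. Centring turned Kif9 and Kif27 the other way, quantile normalization turned Kif9, and the loess turned both and Kif6. The median difference of this class was -0.13, beside -0.11 over all genes. The kinesin-2 subunits Kif3a, Kif3b and Kif3c were counted as transport kinesins and not in this class. Their differences of 1.01, 0.17 and 0.09 were towards ventral tissue, with Kif3b and Kif3c under background.

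Among the other kinesins, Kif2a, a microtubule depolymerase of spindle poles and growing neurites, was at 8.07 in ventral and 7.93 in dorsal tissue; its sign turned under quantile normalization, at -0.10. Kif26b, an atypical kinesin known from kidney development and non-canonical Wnt signalling, was at 4.22 in ventral and 4.16 in dorsal tissue. Its promoter was the 1 of this class with the TTTGAA element, at base -9. Kif26a, Kif21a, Kif21b and Kif12 were under background on both arrays.

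Among genes whose mean over both arrays exceeded 5.48, 9 were kinesins. None of these was at least 2-fold apart, beside 32.7% of the 1964 genes of this kind. The 9 were Kif2a, Kif5b and the mitotic members Kif23, Kif22, Kifc1, Kif2c, Kif15, Kif11 and Kif4, with a median absolute difference of 0.32 on the log2 scale, beside 0.64 over all such genes. Kif20b, at 6.52 in ventral and 3.98 in dorsal tissue, has a mean below this mark. For a given higher value a wider gap lowers the mean, so this choice is not free of the gap. Chosen by the higher array instead, 10 kinesins passed it and 1 of them, Kif20b, was at least 2-fold apart, beside 42.9% of all such genes. For spindle partners chosen by their mean, none of 10 was at least 2-fold apart, and their median absolute difference was 0.28. By the higher array 1 of 11 spindle partners was at least 2-fold apart. Proliferation genes had 1 of 12 by the mean and 1 of 13 by the higher array.

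Cargo adaptors, the opposing motor and the tubulin track were set beside the kinesins. Among genes above background on both arrays, the median absolute difference on the log2 scale was 0.30 over 14 kinesins, 9 of them mitotic. It was 0.47 over 3 adaptors, 0.69 over 11 genes of dynein and dynactin and 0.62 over 7 tubulins, beside 0.44 over 4758 genes in all. The value was 0.30 over 18 spindle partners, 0.33 over 16 proliferation genes and 0.42 over 3 intraflagellar transport genes. Asking for both arrays leaves out genes with 1 value under background. Of 19 measured cargo adaptors and light chains 6 were above background. Past 2-fold on measured values towards ventral tissue were 2 of the 15 kept, beside 9.44% of all kept genes. This count was 1 under quantile normalization and 3 with centring or the loess. The median over 15 kept members was -0.40, with 9 of them higher in dorsal tissue. That median was -0.10 under quantile normalization, -0.29 with centring and -0.25 with the loess. Of the 6 above background 3 were higher in each tissue, with a median of -0.15. Spag9, the JNK-interacting scaffold JIP4 that links kinesin-1 and dynein to vesicles, was 2.20-fold higher at 5.55 in ventral and 4.41 in dorsal tissue. Kifbp, which binds and inhibits several kinesins, was at 4.11 in ventral and 3.01 in dorsal tissue, at least 1.15-fold. Mapk8ip1, the JNK-interacting scaffold JIP1, was higher in dorsal tissue, at 3.89 in ventral and 4.37 in dorsal tissue, at least 1.37-fold.

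Cytoplasmic dynein and dynactin, which move towards the minus end, had 13 of 20 genes above background. Of 17 kept genes 4 passed 2-fold towards ventral and 1 towards dorsal tissue, beside 9.44% and 4.88% of all kept genes. The ventral count was 3 under quantile normalization and 5 with centring or the loess. The gene towards dorsal tissue was Dync1li2, 2.01-fold higher at 4.92 in ventral and 5.93 in dorsal tissue. It fell below 2-fold with centring. Pafah1b1, the dynein regulator Lis1, was 5.21-fold higher at 8.57 in ventral and 6.19 in dorsal tissue. Dctn5, a dynactin subunit, was 4.20-fold higher at 7.51 and 5.44. The median over 17 kept genes was 0.58 and lay between 0.35 and 0.69 under the other scalings. On measured values 2 of 16 tubulins passed 2-fold in each direction, beside 5.36% of all genes towards ventral and 2.79% towards dorsal tissue. Tubb6 was 2.18-fold higher in ventral tissue at 5.33 and 4.21. Tubb2a, at 4.91 in ventral and 3.85 in dorsal tissue, was at least 1.98-fold, since the dorsal value was under background. Tubb5 was 5.28-fold higher in dorsal tissue, at 7.23 in ventral and 9.63 in dorsal tissue. Many tubulin genes are so alike that a probe may read several of them, and under quantile normalization none passed 2-fold towards ventral tissue.

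**Figure D4:**
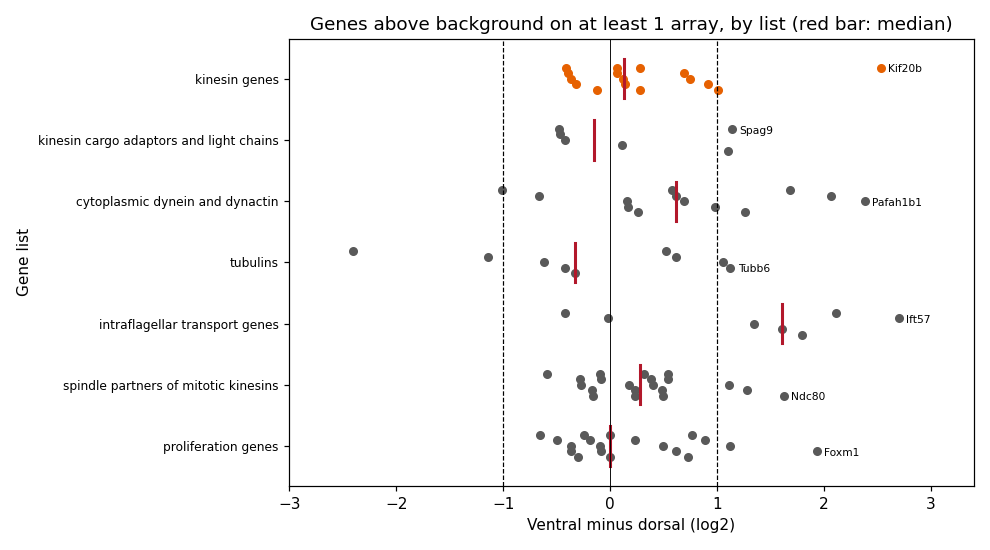
Ventral minus dorsal difference (x axis, log2) of each gene above background on at least 1 array, for the kinesins and 6 companion lists (rows); points are genes, offset vertically for legibility, red bars are medians and dashed lines mark 2-fold. Kif20b stands apart among the kinesins at 2.53, and the 7 intraflagellar transport genes have a median of 1.61, 4 of them being above background on the ventral array alone.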

How the data were processed

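Per the labels' protocols, picogram amounts of RNA were amplified isothermally from a single primer, and scarce transcripts can drop out or be inflated by chance in such a step. The deposited values are log2 expression, 1 per gene and array, from Affymetrix Expression Console and RMA, per the submitters' processing notes. Their versions, the genome build and the set of arrays normalized jointly are not given in the labels. Of 25429 features, 24675 had 1 symbol in the platform annotation, all unchanged in the GRCm38.p6 gene table; 754 without one were left out. The difference was ventral minus dorsal, with no test. Counts of genes at least 2-fold apart use the measured values. Where the lower value was at background, a fold is the brighter value against the background mark and is a lower bound.

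The members, classes, companion lists and motifs were chosen with earlier results of these data known. All members are accounted for. Genes named from a companion or marker list were among its 3 above background with the greatest differences, plus Cenpe and Kifap3. Some genes that met this rule are not described above, among them Tcf21, Dctn2 and Cdk1, with differences of 3.59, 1.68 and 0.885. Kif4-ps, Mki67, Top2a, Mybl2, Ift20, Ift74, Ift46, Tubb2a and Dync1li2 were added after their values were seen. Motifs were searched on both strands; CCAAT and TTTGAA share no full match. The steps were tested on simulated data. Alternatives were means in place of medians, other folds and floors, centring, quantile normalization, and a loess on level with a span of 0.3. Python 3.11.15, numpy 2.4.6, pandas 2.3.3, statsmodels 0.14.6 and matplotlib 3.10.9 were used.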

Additional observations from a re-analysis of the deposited data

How the results depend on the processing

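With no replicate spread, a list's value was taken as moved when it shifted by 0.1 or more on the log2 scale, and a count when it changed by over 1.5 times. Of 42 members, 30 kept their sign under every scaling tried and 40 their side of 2-fold; the other two were Kif23 and Kif3a. No called value changed sign, and 0 kinesins passed 2-fold towards dorsal tissue under these settings, 1.5-fold included. The cause of the shifts was not tested, except where fewer genes or another threshold account for them by construction. The count of 2 kinesins at least 2-fold higher in ventral tissue became 5 at 1.5-fold, 1 at 3-fold, 1 with the floor at the receptor genes' 99th percentile and 1 under quantile normalization. For mitotic kinesins, the count of 1 became 3 at 1.5-fold and 2 with centring. For transport kinesins, the count of 1 became 2 at 1.5-fold and 0 at 3-fold, under quantile normalization and with the highest floor.

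The median over kept kinesins, 0.01, became 0.13 with centring, 0.13 with the floor at the 95th percentile and 0.28 at the 99th. That of mitotic kinesins, 0.12, became 0.23 with centring, 0.013 under quantile normalization, 0.28 with either higher floor, and 0.34 as a mean. That of transport kinesins, 0.07, became 0.19 with centring, 0.23 with loess, 0.18 under quantile normalization and 0.69 with either higher floor, where 3 members or 1 were left. That of ciliary kinesins, -0.25, became -0.14 with centring, -0.11 with loess and -0.13 with no floor; none passed the highest floor. That of the other kinesins, 0.04, became 0.16 with centring and 0.14 at the highest floor. Over all kept genes, the share of ventral among genes at least 2-fold apart was 65.9%, and 74.3% with centring, 59.2% under quantile normalization and 68.8% with loess. No paired analysis was possible because each tissue has 1 array. Signal near background limits the 26 members under 3.92.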
